A study of Mus musculus with 12 samples.

Results

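The nuclear genes of oxidative phosphorylation encode most of the subunits of the respiratory chain and of the ATP synthase in the inner mitochondrial membrane. They were taken here as the protein-coding genes whose symbols begin with Ndufa, Ndufb, Ndufc, Ndufs, Ndufv, Uqcr, Cox4 to Cox8 or Atp5, or are Sdha to Sdhd, leaving out the Ndufaf assembly factors. The rule, which uses names and no measured value, found 81 genes of the 14907 listed: 38 of complex I, 4 of complex II, 8 of complex III, 14 of complex IV and 17 of complex V. Of these 81 genes, 80 passed the filter on low values (a group mean of 10 or more in any group). Cox7a1, the muscle form of a complex IV subunit, did not pass, with values of 1 to 10. Ndufa4l2 passed through the mean of 1 group only, and 79 genes had a mean of at least 10 in every group. A few matched names are not structural subunits of their complex: Atp5s and Atp5sl are ATP synthase relatives by name, Cox7a2l is a factor that joins complexes III and IV, and Ndufa4 has been found with complex IV. The mitochondrially encoded subunits were not analysed here.

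The study profiled messenger RNA of mouse small intestinal mesenchymal cells, the connective-tissue cells beneath the gut epithelium, with and without the adaptor MyD88 and with and without lipopolysaccharide (LPS), a bacterial cell-wall component sensed by TLR4. There were 12 libraries in 4 groups of 3, all from the strain C57/Bl6: wt and MyD88ko cells, each untreated or given LPS. The MyD88ko cells carry the genotype label ColVIcre-MyD88F/F-RosamTmG, in which a Cre driven by a collagen VI promoter deletes floxed MyD88 and switches a membrane reporter to GFP. The wt cells are labelled MyD88F/F-RosamTmG with no Cre, whereas the design text calls them Cre-positive. The wt label also conflicts with the sort on GFP described below, since the switch to GFP needs Cre. Which description is right was not settled here. If the label is right, Cre and the deletion cannot be told apart wherever genotypes are compared. All groups were primary cells at passage 3, sorted on GFP and serum starved overnight, and the LPS groups received 2 µg/ml of LPS from E. coli for 6 hours. Cells that never expressed collagen VI are outside such a sort, and results hold for cultured and starved cells. The labels do not say that replicates came from separate animals, so p-values measure the spread between libraries, which may be technical.

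Libraries were 3′ messenger RNA libraries, in which reads come from the ends of transcripts, and the values are normalized read counts with totals of 3599944 to 4320551 per library. In wt libraries Myd88 had 98 to 103 normalized reads untreated and 171 to 213 after LPS, and MyD88ko libraries had 8 to 14 and 5 to 24, so each library matched its genotype label. All 11 mesenchymal markers were listed, summing to 43643 to 141849 per library. Of 8 leukocyte markers, Cd68, Lyz2, Csf1r and Itgam (with repeated rows) were listed and summed to 17 to 58. The others, Adgre1, Cd3e, Cd79a and Ptprc, were not listed. The 2 listed of 6 endothelial markers summed to 0 to 10. MyD88ko LPS replicate 3 stood at 63.1 on the third principal component, against −23.1 to 20.6 for the other libraries, and wt untreated replicate 2 stood at 4 on the second, against 45 and 36.5 for its group. Untreated libraries carry earlier library codes than LPS libraries, and within each treatment each genotype has its own run of codes. Library series thus cannot be told apart from treatment, nor from genotype within a treatment.

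Complex I (NADH dehydrogenase) and complex II (succinate dehydrogenase) pass electrons to ubiquinone, complex III (cytochrome bc1) passes them on to cytochrome c, and complex IV (cytochrome c oxidase) passes them to oxygen. Complexes I, III and IV pump protons as they do so, and complex V (ATP synthase) makes ATP from the returning protons. In macrophages and dendritic cells, stimulation through TLR4 is known to shift metabolism from respiration toward glycolysis. Here only messenger RNA was measured, not protein, complex assembly or respiration.

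After 6 hours of LPS, part of these genes fell in wt cells, and few rose. In wt untreated cells the 81 genes together took 2.14%, 1.92% and 2.02% of the normalized reads in replicates 1 to 3, a mean of 2.03% ± 0.11 (SD, n = 3). In wt cells with LPS they took 1.58%, 1.49% and 1.48%, a mean of 1.52% ± 0.06 (SD, n = 3), so the groups did not overlap. In MyD88ko cells the share was 1.91%, 1.89% and 1.78% untreated and 1.59%, 1.55% and 1.97% with LPS. Here the groups overlapped, through MyD88ko LPS replicate 3 alone, the library that stood apart on the third principal component. That library was the highest of 12 in 14 tested members and the lowest in 7. Atp5g3 had 12497 normalized reads in it, against 5513 and 6111 in its group, and Sdhc had 3554, against 467 and 566. In the plot of shares by complex, complex V had the widest gap in wt cells, with 0.755% ± 0.078 untreated and 0.455% ± 0.020 with LPS (SD, n = 3). Abundant genes weigh most in such sums. Atp5g3 of complex V alone had a mean of 11768 normalized reads in wt untreated libraries, where all 81 genes had 77855. With LPS in wt it had 5788, where all 81 genes had 56999. Complex I differed least in relative terms, with 0.562% ± 0.023 and 0.514% ± 0.044 (SD, n = 3).

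**Figure D1:**
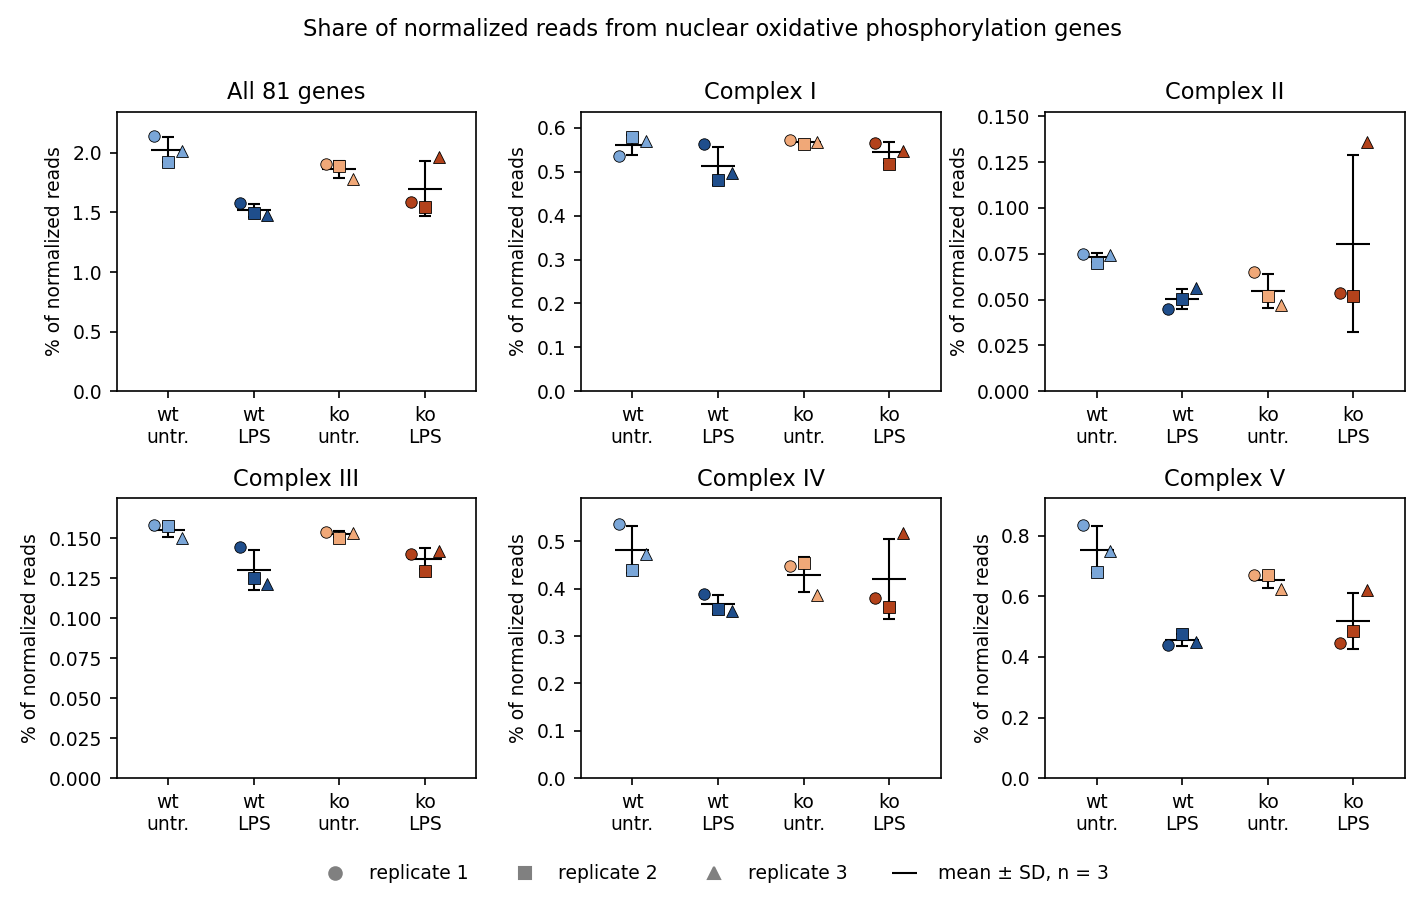
Percent of all normalized reads that came from the 81 genes and from each complex, on linear axes from 0, for 12 libraries in 4 groups of 3 (points are libraries, with the symbol giving the replicate number; the bars are the group mean ± SD). In wt cells the 3 LPS libraries lie below the 3 untreated ones for all 81 genes, and MyD88ko LPS replicate 3 lies above its group for complexes II, IV and V.

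Gene by gene, LPS in wt cells lowered 17 of the 80 tested genes and raised 2 at an adjusted p under 0.05 (limma-trend on log2 of value + 1, Benjamini-Hochberg over all 12385 tested genes). That is 21.25% lower and 2.5% higher. Over all tested genes, 9.66% were lower, 9.55% higher and 19.2% called in either direction. The total share called, 23.75%, was thus near the background, while the split between directions was not that of all genes. The median log2 fold change was −0.22 against 0.01 over all tested genes, and 54 genes lay below 0 and 26 above. All 3 LPS libraries lay below all 3 untreated ones for 25 of the genes, against 17.4% of all tested genes, and above for 8 genes, against 17.4%. Without wt untreated replicates 1 and 3, where 1 wt untreated library is left and is assumed to vary as the other groups do, the count was 10 (2 higher, 8 lower). Without MyD88ko LPS replicate 3, which enters the shared estimate of spread, it was 26 (2 higher, 24 lower). An unadjusted p under 0.05 was found for 35 of the 80 members, against 32% of all tested genes. Per-complex medians in wt cells were −0.13 for complex I, −0.56 for II, −0.23 for III, −0.23 for IV and −0.31 for V.

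**Figure D2:**
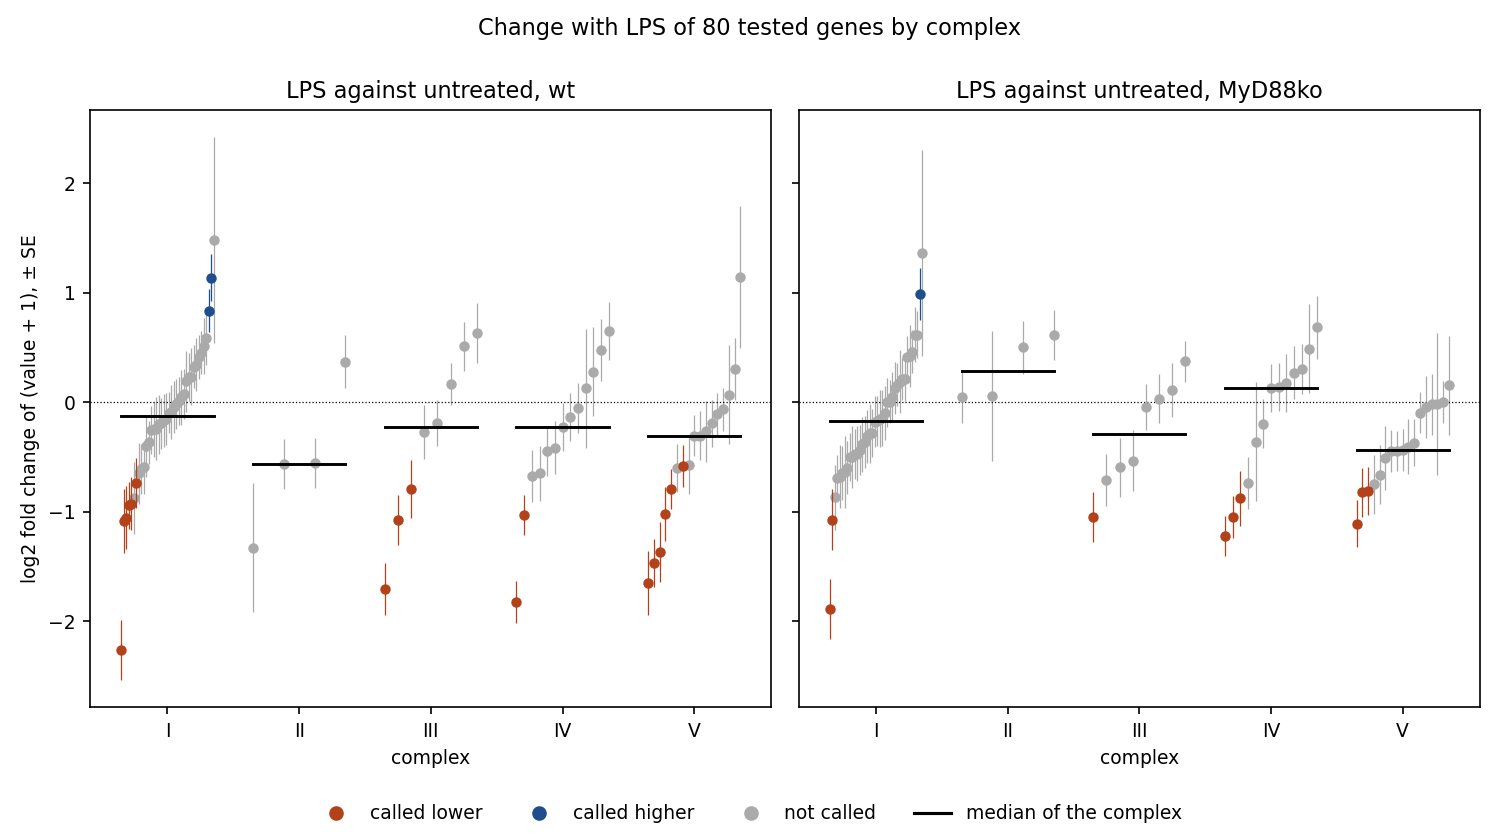
Log2 fold change of (value + 1) with LPS against untreated for the 80 tested genes, ordered by size within complexes I to V, in wt (left) and MyD88ko cells (right). Points are genes with their SE from the fit, coloured by the call at an adjusted p under 0.05, and the black line is the median of the complex. Called genes lie mostly below 0 in both panels, with 17 lower and 2 higher in wt and 9 lower and 1 higher in MyD88ko.

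The gene with the largest fall was Ndufab1 (chromosome 7, 122085403 to 122101886, minus strand, in build mm10), the mitochondrial acyl carrier protein, which is both an accessory subunit of complex I and a scaffold of mitochondrial fatty acid synthesis. It had 611, 563 and 439 normalized reads in wt untreated libraries and 109, 97 and 126 with LPS. Its fall was 4.80-fold (log2 fold change −2.26 ± 0.28 SE, limma adjusted p = 1.94e-05). The MyD88ko libraries gave 643, 293 and 404 without LPS against 91, 160 and 101 after it, a fall of 3.70-fold (−1.89 ± 0.28, limma adjusted p = 0.000386). The untreated and LPS groups were apart in both genotypes, although the untreated MyD88ko libraries spread over more than the LPS ones. It was also the only member lower with LPS in MyD88ko cells by the authors' deposited table, at an adjusted p under 0.05.

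Promoters of 6 genes are shown for the 2 largest wt falls, both also called in MyD88ko (Ndufab1 and Cox7c), for genes that fell and hold a match to a motif known from respiratory-chain genes (Atp5h, Ndufs5 and Uqcr11), and for the leading rise (Ndufa3). Of the 81 genes, 65 matched a RefSeq window of 300 bases (GRCm38.p6, 250 before and 50 after the start). A set of 4 motifs was searched on both strands: the NRF1 motif (the capitals of Atp5h, with any base allowed at its 6th letter), the ETS motif CCGGAAG, the SP1 motif GGGCGG and the YY1 motif. None of them contains another. Each run below lies before both the RefSeq start and the start of the gene in the deposited tables, reads 5′ to 3′ on the gene's strand, and has motif matches in capitals.
Ndufab1, chr7:122101887-122102036, minus strand, SP1 match: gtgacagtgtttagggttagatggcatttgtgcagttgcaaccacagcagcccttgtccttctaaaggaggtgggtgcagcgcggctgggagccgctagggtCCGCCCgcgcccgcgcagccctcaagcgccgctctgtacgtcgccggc
Cox7c, chr13:86046905-86047045, minus strand, no match: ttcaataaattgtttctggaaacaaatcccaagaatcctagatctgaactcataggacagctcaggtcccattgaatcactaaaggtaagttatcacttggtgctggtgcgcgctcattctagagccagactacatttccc
Atp5h, chr11:115419963-115420112, minus strand, NRF1 match: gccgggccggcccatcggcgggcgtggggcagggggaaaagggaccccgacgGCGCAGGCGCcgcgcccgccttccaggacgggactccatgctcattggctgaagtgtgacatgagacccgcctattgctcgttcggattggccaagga
Ndufs5, chr4:123718203-123718352, minus strand, NRF1 match: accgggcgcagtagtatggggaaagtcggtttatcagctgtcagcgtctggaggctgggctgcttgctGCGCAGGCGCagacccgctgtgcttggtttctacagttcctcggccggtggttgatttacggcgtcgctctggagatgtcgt
Uqcr11, chr10:80406831-80406980, minus strand, ETS match: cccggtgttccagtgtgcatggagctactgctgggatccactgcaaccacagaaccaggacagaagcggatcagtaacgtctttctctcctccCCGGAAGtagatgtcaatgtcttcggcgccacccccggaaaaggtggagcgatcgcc
Ndufa3, chr7:3617223-3617372, plus strand, SP1 match: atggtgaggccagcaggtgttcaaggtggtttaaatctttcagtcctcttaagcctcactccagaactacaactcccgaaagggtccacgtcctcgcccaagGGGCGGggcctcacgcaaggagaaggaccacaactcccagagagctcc

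Over the whole windows, a gene was counted if any of its windows held the motif. An NRF1 match was found in 3 of the 14 genes lower with LPS in wt that had a window (21.4%). It was found in 14 of the 50 other tested members (28%), against 5.19% of all 27025 genes with a window. An ETS match was found in 4 of 14 (28.6%) and 12 of 50 (24%), against 9.93% of all genes with a window. The YY1 motif was found in 1 of 14 (7.14%) and 4 of 50 (8%), against 0.995%. The SP1 motif was found in 2 of 14 (14.3%) and 24 of 50 (48%), against 38.2%. These shares are descriptions of letters in the windows, with no test of any difference between the sets.

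Complex I has a core, whose nuclear members lie in the matrix arm and carry the flavin and the iron-sulfur clusters, and a larger number of accessory subunits. None of the 7 core genes was called in wt cells, against 19.2% of all tested genes, and their changes ran from −0.61 to 0.19. Ndufv1, the flavin-bearing subunit, had 320, 394 and 397 normalized reads untreated and 236, 183 and 334 with LPS in wt (−0.60, limma adjusted p = 0.0946). Of the 29 accessory genes, 5 fell (17.2%) and 2 rose (6.90%) in wt cells, against 9.66% and 9.55% of all tested genes. Besides Ndufab1, those that fell were Ndufs5 (−1.08, limma adjusted p = 0.0135), Ndufb9 (−0.94, 0.00396), Ndufb3 (−0.93, 0.00993) and Ndufb5 (−0.74, 0.0297). Ndufa4, counted under complex I by its name, fell as well (−1.06, 0.0133). The calls of Ndufa4 and Ndufb5 ended without wt LPS replicate 2 or 3 or wt untreated replicate 1, and that of Ndufb5 also without wt untreated replicate 2, wt LPS replicate 1 or the trend (limma adjusted p of 0.0514 to 0.1 for Ndufa4 and 0.0515 to 0.123 for Ndufb5). Ndufs5 was not called without wt untreated replicate 3 (limma adjusted p = 0.0652) or the trend (0.0564), nor Ndufb3 without wt LPS replicate 2 (0.0573). In MyD88ko, Ndufs5 was called lower without MyD88ko LPS replicate 3 (−1.30, limma adjusted p = 0.00314).

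The genes that rose in wt cells were a pair of accessory subunits of complex I. Ndufa3 (chromosome 7, 3617373 to 3620327, plus strand) had 321, 397 and 367 normalized reads untreated and 1021, 811 and 604 with LPS in wt. This was 2.20-fold higher (1.14 ± 0.21, limma adjusted p = 0.000946). Ndufa2 had 751, 751 and 965 without LPS against 1416, 1268 and 1716 after it, 1.78-fold higher (0.83 ± 0.20, limma adjusted p = 0.00526). For both genes every wt LPS library lay above every wt untreated one. In MyD88ko cells Ndufa3 had 441, 630 and 563 without LPS against 870, 811 and 801 after it, with no overlap and no call (0.62, limma adjusted p = 0.096). The untreated MyD88ko libraries also lay above the untreated wt libraries for both genes (0.58 for Ndufa3 and 0.53 for Ndufa2), differences that were not called either (limma adjusted p = 0.18 and 0.178). With wt untreated replicate 2 as the only wt untreated library, the fitted change of Ndufa3 in wt was 0.998 (limma adjusted p = 0.0549).

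Complex II is the only complex here that also works in the TCA cycle, and all of its subunits are nuclear. No member was called in either genotype, where 19.2% (wt) and 5.98% (MyD88ko) of all tested genes were called. In wt, 3 of the 4 members had an unadjusted p under 0.05, against 32% of all tested genes. Sdhc, a membrane anchor that helps bind ubiquinone, had 1196, 1029 and 1429 normalized reads in untreated wt libraries and 376, 571 and 514 after LPS. Its MyD88ko libraries gave 1143, 855 and 853 without LPS against 467, 566 and 3554 after it. A single library, MyD88ko LPS replicate 3, was thus more than 6 times its group's other libraries, while the rest showed lower values with LPS in both genotypes. With all libraries Sdhc was not called in wt (−1.33 ± 0.59, limma adjusted p = 0.147) or in MyD88ko (0.06 ± 0.59, limma adjusted p = 0.97). Without that library it was called lower in both, at −1.33 in wt (limma adjusted p = 0.00013) and −0.87 in MyD88ko (limma adjusted p = 0.0298). The authors' deposited table called Sdhc lower with LPS in wt, and higher in MyD88ko with LPS than in wt with LPS, a comparison that includes the high library. Sdhd, the other anchor, had 457, 448 and 463 without LPS against 272, 293 and 366 after it in wt, and 453, 288 and 228 without LPS against 481, 431 and 513 after it in MyD88ko. Its values were lower with LPS in wt without overlap (−0.57, limma adjusted p = 0.0936) and overlapped in MyD88ko (0.61, 0.126). Sdha and Sdhb, the catalytic head, had log2 fold changes of −0.56 and 0.37 in wt (limma adjusted p = 0.0963 and 0.312).

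In complex III, 3 of 8 genes fell in wt cells (37.5%, against 9.66% of all tested genes). Uqcrfs1, the Rieske iron-sulfur protein that takes electrons from ubiquinol, had 1079, 1144 and 1012 normalized reads in wt untreated and 283, 375 and 336 with LPS. Its fall was 3.27-fold (−1.71 ± 0.24, limma adjusted p = 6.77e-05), with no overlap. The MyD88ko libraries gave 996, 812 and 752 without LPS against 391, 434 and 816 after it, where MyD88ko LPS replicate 3 alone lay among the untreated values. It was not called there with all libraries (−0.71, limma adjusted p = 0.0884) and was called without that library (−1.04, limma adjusted p = 0.00508). Uqcr11, a small subunit, had 464, 362 and 672 without LPS against 285, 201 and 210 after it in wt (−1.07 ± 0.23, limma adjusted p = 0.0025), and 561, 482 and 502 without LPS against 259, 249 and 236 after it in MyD88ko (−1.05 ± 0.23, limma adjusted p = 0.00865). The groups were apart in both genotypes, and with wt untreated replicate 2 as the only wt untreated library the fitted change in wt was −0.66 (limma adjusted p = 0.182). Uqcrb was the only called gene in wt whose groups overlapped (−0.79, limma adjusted p = 0.0439). Its call ended in 8 of the 12 fits without 1 library (all but those without wt untreated replicate 3, wt LPS replicate 3 or MyD88ko LPS replicate 1 or 3), where limma's adjusted p reached 0.248, and in 5 other fits (no trend, replicate block, quantile normalization, GC correction, only the groups compared; 0.0537 to 0.117). Uqcrc1, a core protein, had higher values with LPS in wt (0.63, 0.117) and lower ones in MyD88ko (−0.53, 0.275), neither of them called with all libraries. Without wt untreated replicate 3, its highest untreated wt value, it was called higher with LPS in wt (limma adjusted p = 0.00933).

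Complex IV had 2 of 13 tested genes lower in wt (15.4%, against 9.66% of all tested genes), both small nuclear subunits. Cox7c (chromosome 13, 86044816 to 86046904, minus strand) had 1331, 1348 and 1460 normalized reads in wt untreated and 350, 425 and 394 with LPS, a 3.54-fold fall (−1.82 ± 0.19, limma adjusted p = 3.86e-06). The MyD88ko libraries gave 1225, 981 and 923 without LPS against 574, 449 and 485 after it, a 2.07-fold fall (−1.05, limma adjusted p = 0.00252). The replicates of Cox7c lay close together in each group, and its adjusted p in wt was the smallest of all members. Cox5b, which binds zinc on the matrix side, had 808, 816 and 852 without LPS against 458, 364 and 393 after it in wt (−1.03 ± 0.18, limma adjusted p = 0.000592). The MyD88ko libraries gave 957, 1071 and 961 without LPS against 437, 381 and 463 after it (−1.22 ± 0.18, limma adjusted p = 0.000475). Its groups were apart in both genotypes by more than the spread within any group. Cox4i1 had 1395, 1468 and 2309 without LPS against 1197, 1067 and 960 after it in wt (−0.65, limma adjusted p = 0.0772), and it fell in MyD88ko (−0.88, limma adjusted p = 0.0422). That call ended in 8 of the 12 fits that left out 1 library (those without any MyD88ko untreated library, any wt LPS library, or MyD88ko LPS replicate 1 or 2; limma adjusted p up to 0.171), and also without the trend (0.13), with quantile normalization (0.0597), by voom (0.061) and with only the groups compared (0.0622). Cox5a lay just outside the call in both genotypes (−0.68 in wt and −0.74 in MyD88ko, limma adjusted p = 0.0522 and 0.0727), and it was called lower in both without MyD88ko LPS replicate 3 (limma adjusted p = 0.0204 and 0.012).

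Some complex IV subunits have forms restricted to heart, skeletal muscle or testis. Cox6a2, the heart and muscle form, had 5 to 51 normalized reads over the 12 libraries, and Cox6b2, the testis form, 24 to 79. Their general forms Cox6a1 and Cox6b1 had 697 to 2613 and 1124 to 2168. None of these 4 genes was called with LPS in either genotype, nor were Cox7a2, Cox8a and Ndufa4l2. Cox4i2 and Cox8b were not analysed here. The highest Cox6a1 value was that of MyD88ko LPS replicate 3, against 1280 and 1018 in its group.

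In complex V, 6 of 17 genes fell in wt cells (35.3%) and none rose, against 9.66% and 9.55% of all tested genes. In all, 14 of 17 lay below 0. The peripheral stalk and the membrane part hold the enzyme still while its rotor turns. Their 7 members all lay below 0 in both genotypes, some of them barely (Atp5j2 at −0.06 in wt, Atp5f1 at −0.001 in MyD88ko). Of all 12385 tested genes, 6098 lay below 0 in wt and 6161 in MyD88ko. In wt, 3 of these 7 members fell. Atp5j, coupling factor 6, had 518, 553 and 317 normalized reads in wt untreated and 92, 184 and 170 with LPS (3.14-fold, −1.65 ± 0.29, limma adjusted p = 0.000543). Atp5l, subunit g of the membrane part, had 3214, 1783 and 2487 without LPS against 947, 777 and 913 after it (2.77-fold, −1.47 ± 0.22, limma adjusted p = 0.000132). Atp5h, subunit d, had 1029, 977 and 535 without LPS against 323, 266 and 361 after it (2.58-fold, −1.37 ± 0.27, limma adjusted p = 0.00139). All 3 had a wide spread among the wt untreated libraries and no overlap with the LPS libraries. In MyD88ko cells Atp5l fell from 1900, 1650 and 1796 to 1260, 966 and 834 (−0.82, limma adjusted p = 0.0312), while Atp5j (−0.51, 0.334) and Atp5h (−0.75, 0.11) were not called. The MyD88ko call of Atp5l ended without any 1 of the MyD88ko untreated libraries, without MyD88ko LPS replicate 2 or 3 (limma adjusted p of 0.0753 to 0.114), and without the trend (0.0991).

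The catalytic head and central stalk of complex V had 2 of 5 genes lower in wt (40%, against 9.66% of all tested genes). Their median was −0.58, against −0.57 for the peripheral stalk and membrane part. Atp5a1, the alpha subunit, had 3378, 3887 and 4417 normalized reads untreated and 2379, 2205 and 2126 with LPS in wt (−0.79, limma adjusted p = 0.00452). Atp5b, the catalytic beta subunit, had 3602, 3322 and 3770 without LPS against 2870, 2392 and 3460 after it, which overlapped (−0.31, limma adjusted p = 0.27). Atp5d, the delta subunit of the central stalk, fell in wt (−0.58, limma adjusted p = 0.0413), a call that ended in 9 of the 12 fits without 1 library (all but those without wt untreated replicate 2 or MyD88ko LPS replicate 1 or 3; limma adjusted p up to 0.17), and also without the trend (0.0831), with quantile normalization (0.0611), by voom (0.0562) and with only the groups compared (0.0691). Atp5e, the epsilon subunit, had 1024, 824 and 662 without LPS against 530, 520 and 579 after it in wt (−0.60, limma adjusted p = 0.0558), and 1259, 1144 and 1513 without LPS against 661, 703 and 464 after it in MyD88ko. There it fell 2.16-fold (−1.11 ± 0.22, limma adjusted p = 0.00427), the largest change of complex V in that genotype.

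A set of 3 genes, Atp5g1, Atp5g2 and Atp5g3, encodes the same mature subunit c of the membrane ring. Atp5g3 had 13619, 10099 and 11585 normalized reads untreated and 5048, 6554 and 5761 with LPS in wt, a fall of 2.03-fold (−1.02 ± 0.25, limma adjusted p = 0.00692). The MyD88ko libraries gave 10290, 10179 and 9388 without LPS against 5513, 6111 and 12497 after it, where MyD88ko LPS replicate 3 lay above all untreated libraries. It was not called in MyD88ko with all libraries (−0.41, limma adjusted p = 0.368) and was called without that library (−0.78, limma adjusted p = 0.0222). Atp5g1 and Atp5g2 were not called in wt (−0.19 and −0.27, limma adjusted p = 0.58 and 0.553). With wt untreated replicate 2 as the only wt untreated library, the fitted change of Atp5g3 in wt was −0.81 (limma adjusted p = 0.191).

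**Figure D3:**
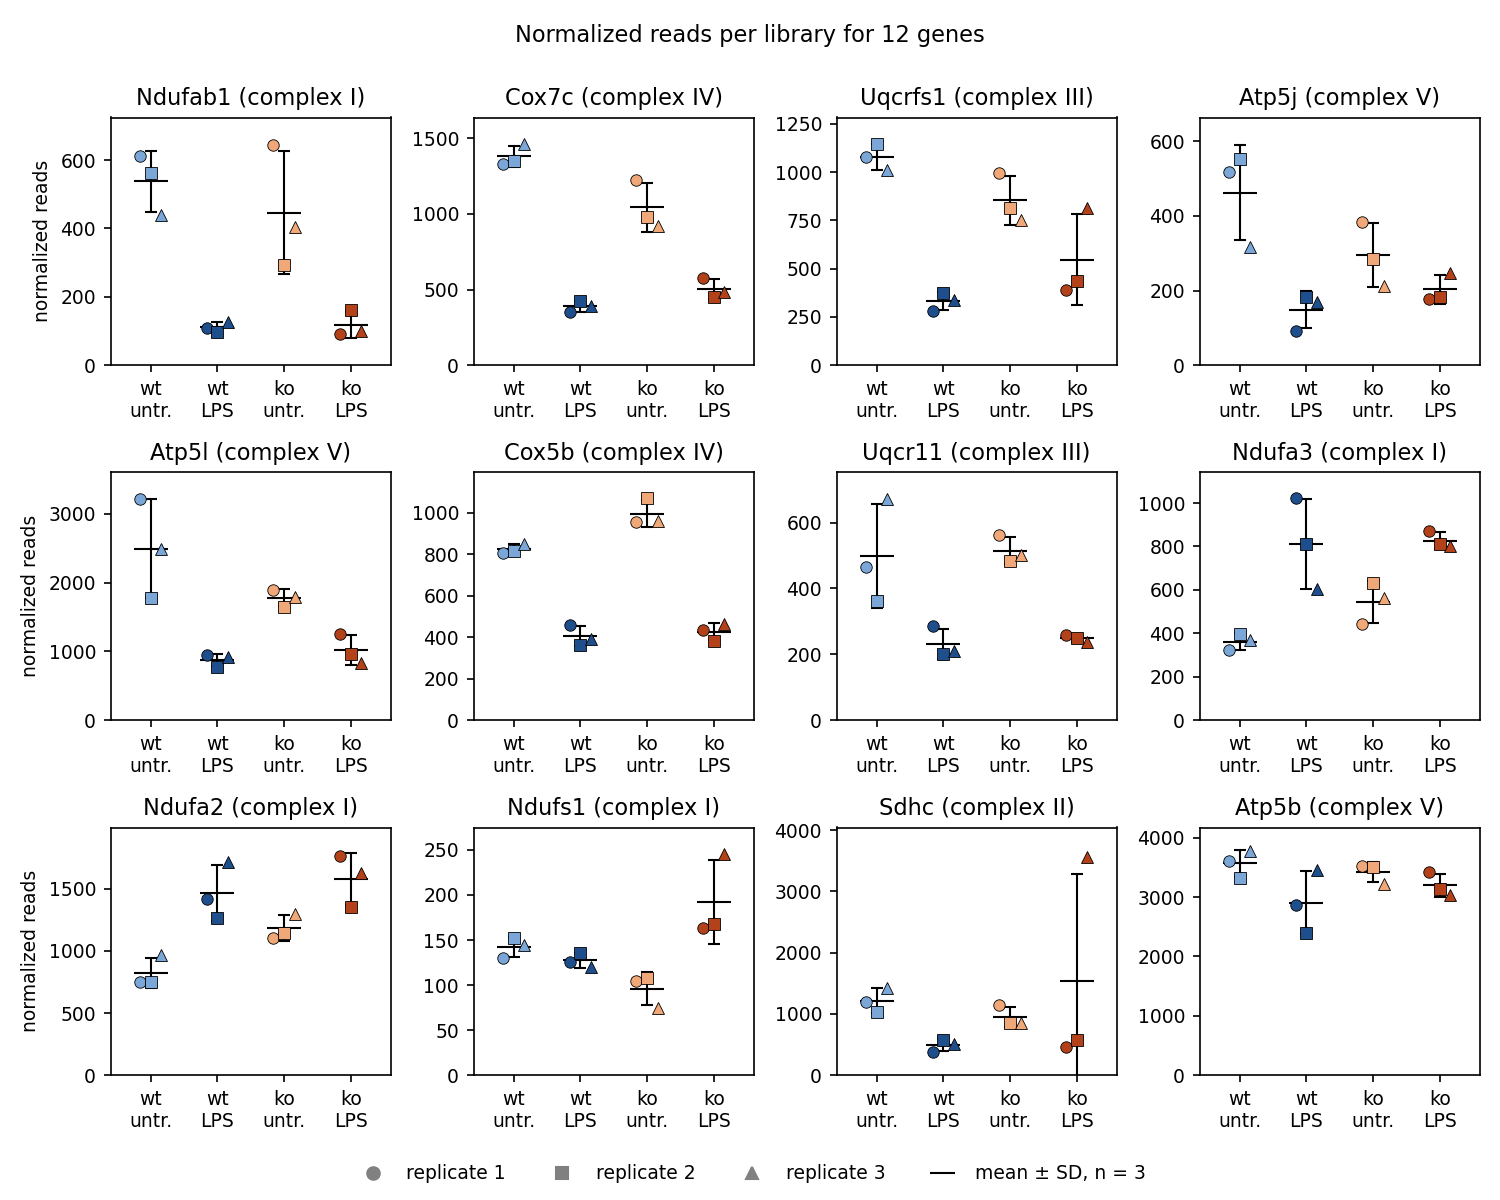
Normalized reads per library, on linear axes from 0, for 12 genes in the 4 groups (symbols give the replicate number, bars the mean ± SD with n = 3; the lower end of the Sdhc bar is cut at 0). The 3 LPS libraries lie below the 3 untreated ones in both genotypes for Ndufab1, Cox7c, Atp5l, Cox5b and Uqcr11, and the value of 3554 for Sdhc is MyD88ko LPS replicate 3.

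Without MyD88, LPS lowered 9 of the 80 genes and raised 1, which is 12.5% of the members against 5.98% of all tested genes (11.25% against 3.4% lower and 1.25% against 2.58% higher; limma). The genes that fell were Ndufab1 and Ndufb2 of complex I, Uqcr11 of complex III, Cox5b, Cox7c and Cox4i1 of complex IV, and Atp5e, Atp5l and Atp5o of complex V, and none of their groups overlapped. Atp5o, the subunit that links the stalk to the head, had 1613, 1550 and 1612 normalized reads untreated and 1231, 915 and 659 with LPS (−0.81, limma adjusted p = 0.0324). Its call ended without any 1 of the MyD88ko untreated libraries, without MyD88ko LPS replicate 2 or 3 (limma adjusted p of 0.0804 to 0.116), without the trend (0.101) and with only the groups compared (0.0577). Ndufb2 had 264, 268 and 214 without LPS against 115, 99 and 141 after it (−1.07, limma adjusted p = 0.0253). Its call ended without any 1 of the MyD88ko untreated libraries, without MyD88ko LPS replicate 1 or 2 (limma adjusted p of 0.0523 to 0.0995), and without the trend (0.0832). An unadjusted p under 0.05 was found for 30 of the 80 members, against 21% of all tested genes, and 24 members lay below and 7 above without overlap, against 13.3% and 12.2%. The median log2 fold change over the members was −0.17 against 0.00 over all tested genes, and by complex it was −0.17, 0.28, −0.29, 0.13 and −0.44 for I to V. The count was 6 without MyD88ko untreated replicate 2, 5 without MyD88ko untreated replicate 3 and 6 without MyD88ko LPS replicate 2. Without MyD88ko LPS replicate 3, which was the highest of all 12 libraries in 14 of the 80 members (17.5%, against 13.8% of all tested genes), it was 12, all lower.

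Ndufs1, the iron-sulfur protein of the complex I core, was the 1 member that rose in MyD88ko cells. It had 105, 108 and 75 normalized reads untreated and 163, 168 and 246 with LPS (1.98-fold, 0.99 ± 0.24, limma adjusted p = 0.0169). In wt cells it had 130, 152 and 144 without LPS against 126, 136 and 120 after it, which overlapped (−0.16, limma adjusted p = 0.699). The untreated MyD88ko libraries were thus below all others, and the LPS ones above all others. The call was lost without MyD88ko untreated replicate 3 (limma adjusted p = 0.0985) or without MyD88ko LPS replicate 3 (0.0669).

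Called in both genotypes were 5 genes, all of them lower: Ndufab1, Uqcr11, Cox7c, Cox5b and Atp5l, the last with a MyD88ko call that rests on single libraries. They make up 26.3% of the members called in wt and 50% of those called in MyD88ko. The same shares over all called genes were not computed, so these shares are not shown to be particular to the members. The wt and MyD88ko comparisons with LPS share no library, but they are not independent. Both use the estimate of spread from all 12 libraries, and in both the library series goes with treatment. All 17 members that fell in wt had a log2 fold change below 0 in MyD88ko, which also held for 91.6% of the 1197 genes of any kind that fell in wt. Their median was −1.06 in wt and −0.70 in MyD88ko, against −1.17 and −0.61 for all genes that fell in wt.

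The difference between the LPS responses of the genotypes was tested by itself, and 0 of 80 members were called by limma, against 0.0161% of all tested genes (0.00807% in each direction). At an unadjusted p under 0.05 there were 7 members, against 9.18% of all tested genes. The smallest p was that of Sdhd, whose response was higher in MyD88ko by 1.18 ± 0.33 on the log2 scale (limma adjusted p = 0.315, with a 95% interval of 0.50 to 1.86). For Ndufs1 the difference was 1.14 (0.44 to 1.85, limma adjusted p = 0.324) and for Atp5j 1.14 (0.29 to 2.00, 0.394), and for Uqcrfs1 the interval was 0.28 to 1.71 (0.371). For Uqcrc1 it was −1.17 (−1.98 to −0.35, limma adjusted p = 0.363). For Cox7c, which fell in both genotypes, it was 0.78 (0.21 to 1.34, limma adjusted p = 0.378). Among these genes the intervals reached 2.00 for Atp5j and −1.98 for Uqcrc1 on the log2 scale, so the misses do not show equal responses. For Ndufab1 the difference was 0.38, with an interval of −0.44 to 1.19, for Cox5b −0.19 (−0.73 to 0.35) and for Uqcr11 0.02 (−0.65 to 0.70).

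Between genotypes without LPS, 0 of 80 members were called by limma, against 1.88% of all tested genes (0.791% higher and 1.09% lower in MyD88ko). At an unadjusted p under 0.05 there were 13 members, against 15.5% of all tested genes, and the median was 0.13 against 0.00. By voom, which moved the median of all genes to −0.14, it was −0.0049. The closest to a call was Ndufv3, an accessory subunit of complex I, with 258, 352 and 169 normalized reads in wt and 411, 502 and 434 in MyD88ko (0.85, 95% interval 0.34 to 1.35, limma adjusted p = 0.0861). Uqcrq, a small subunit of complex III, had 554, 605 and 600 in wt and 945, 907 and 1096 in MyD88ko (0.74, 0.27 to 1.21, limma adjusted p = 0.102). Neither gene's groups overlapped. Ndufv3 was called without wt untreated replicate 2 (1.10, limma adjusted p = 0.0162) and Uqcrc1 without wt untreated replicate 3 (1.21, limma adjusted p = 0.0173). Of all 80 members, 13 had all 3 MyD88ko libraries above all 3 wt libraries, against 10.5% of all tested genes, and 3 had them below, against 9.89%.

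Between genotypes with LPS, 0 of 80 members were called by limma as well, against 1.49% of all tested genes (0.452% higher and 1.04% lower in MyD88ko), and 8 had an unadjusted p under 0.05, against 12%. The median was 0.19 against 0.00, with 63 members above 0 and 17 below, and it was 0.11 after quantile normalization and 0.06 by voom, which moved the median of all genes to −0.13. Ndufb5 had the smallest p, with 592, 639 and 569 normalized reads in wt and 887, 806 and 1575 in MyD88ko (0.79, 95% interval 0.31 to 1.28, limma adjusted p = 0.107). Uqcrfs1, which fell in wt, had a difference of 0.65 (0.15 to 1.15, limma adjusted p = 0.249). In 11 members all 3 MyD88ko libraries lay above all 3 wt libraries, against 7.54% of all tested genes, and in 0 members below, against 8.31%.

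**Figure D4:**
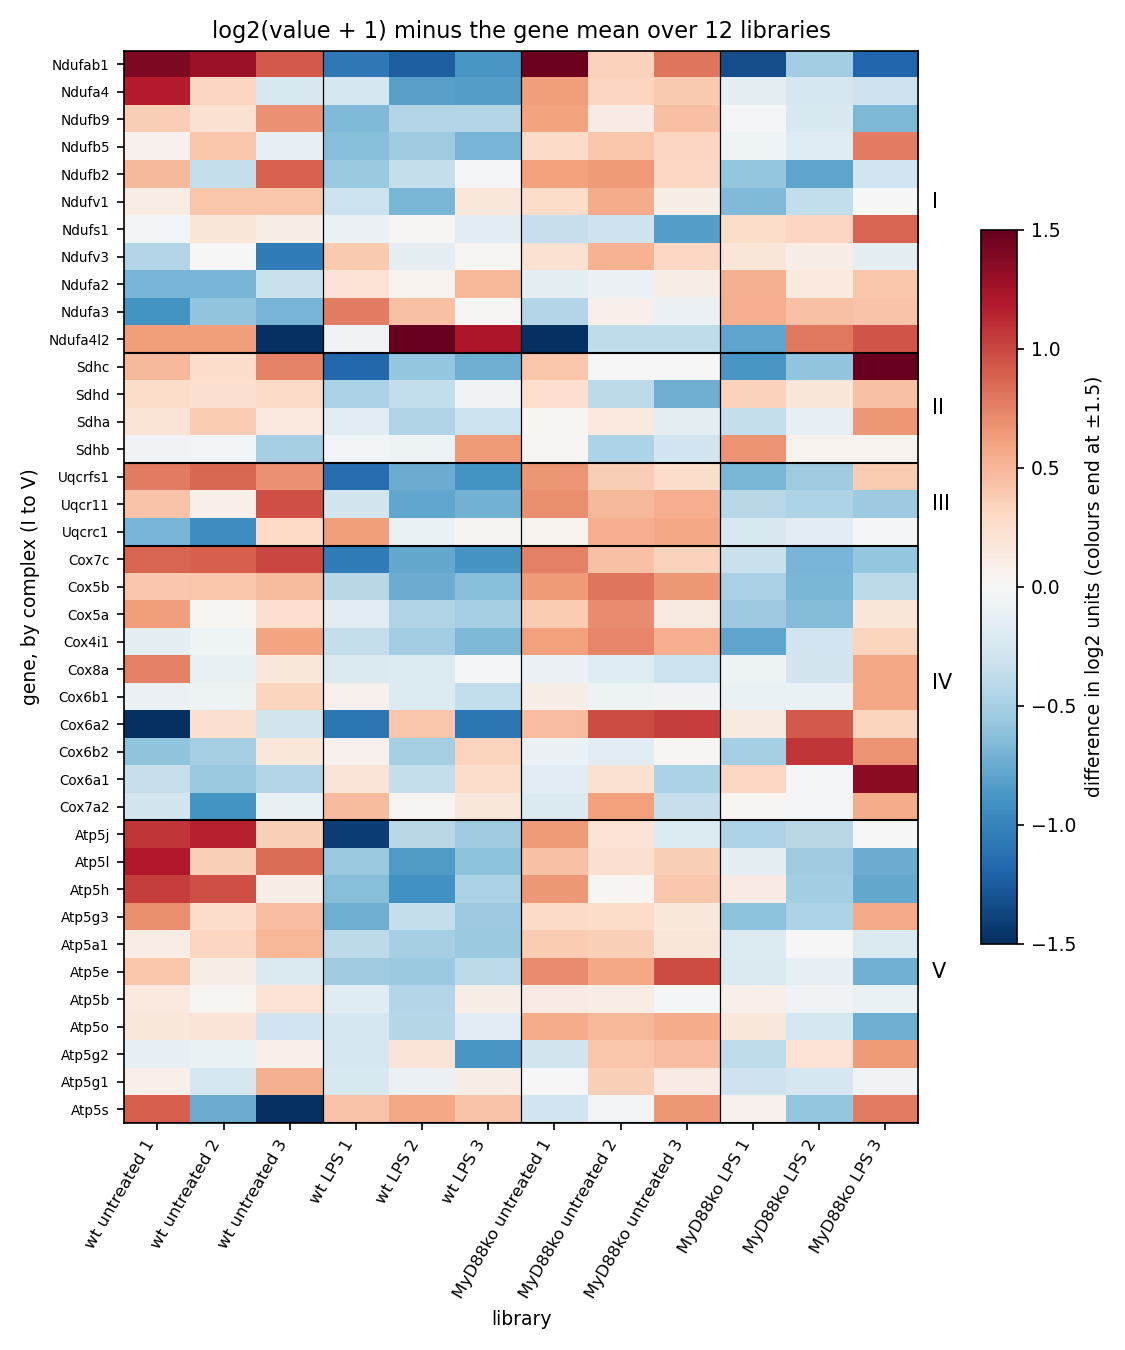
Each gene's log2(value + 1) minus its mean over the 12 libraries, for 39 of the 80 tested genes, those the naming rule picked, in rows (grouped by complex I to V and ordered by the wt change with LPS) and 12 libraries in columns, with colours ending at ±1.5. The upper rows of complexes I, III, IV and V are mostly higher in the untreated columns, and MyD88ko LPS replicate 3 is high for Sdhc and Cox6a1.

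At an adjusted p under 0.05, the authors' deposited table called 7 members lower with LPS in wt (Ndufab1, Sdhc, Uqcrfs1, Cox7c, Atp5h, Atp5j and Atp5l) and 0 higher, against 2.63% lower and 1.72% higher over its genes. For LPS in MyD88ko the authors' deposited table called 1 member lower and 0 higher, against 0.342% and 0.413%. Between untreated genotypes the authors' deposited table called 0 members, against 1.46% lower and 0.139% higher. Between genotypes with LPS the authors' deposited table called Sdhc alone, as higher in MyD88ko, against 0.0919% higher and 0.453% lower.

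Genes that work with the complexes were counted from 7 lists. Among them, 48 assembly factors were tested, and 5 rose (10.4%) and 1 fell (2.08%) with LPS in wt (median 0.28), against 9.55% and 9.66% of all tested genes. The rise was thus near the background in number. One of the 5 was Coa6, a copper-handling factor for complex IV, which went from 20, 26 and 14 normalized reads to 57, 75 and 85 (3.55-fold, limma adjusted p = 0.00098). Of 9 partners of ATP synthase and carriers of the inner membrane, 0 rose and 2 fell. Usmg5, a small subunit associated with ATP synthase that the name rule leaves out, went from 1116, 1096 and 1230 to 303, 342 and 151 in wt (4.57-fold, limma adjusted p = 4.85e-05). The ADP/ATP carrier Slc25a4 was 1.98-fold lower (limma adjusted p = 0.00219). Of 16 electron carriers and quinone synthesis genes 1 rose and 2 fell, and of 25 TCA cycle genes 1 rose and 3 fell, among them Sucla2 and Idh2 (1.91-fold and 1.98-fold lower, limma adjusted p = 0.0018 and 0.00728).

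Of 17 regulators of mitochondrial biogenesis 0 rose and 1 fell in wt. This was Ssbp1, the single-stranded DNA-binding protein of the mitochondrial genome, with 717, 951 and 690 normalized reads untreated and 92, 108 and 188 with LPS (6.27-fold, limma adjusted p = 1.21e-05). It fell in MyD88ko too, from 942, 598 and 518 to 311, 249 and 147 (2.94-fold, limma adjusted p = 0.00459). Of 28 genes of protein import and inner membrane organisation 3 rose (10.7%) and 4 fell (14.3%) in wt, near the shares of all tested genes. The chaperonin pair Hspe1 and Hspd1 fell 3.97-fold and 2.16-fold (limma adjusted p = 2.31e-06 and 0.000788), and Hspe1 fell 2.24-fold in MyD88ko (limma adjusted p = 0.00146). Of 78 mitochondrial ribosomal proteins, 8 rose and 3 fell in wt (median −0.02), so that list did not move mainly downward. In MyD88ko cells 3 of the 221 tested genes of the 7 lists were higher with LPS and 4 lower, against 2.58% and 3.4% of all tested genes. Between genotypes, 1 gene of the lists was called untreated (Mrpl4, 2.05-fold higher in MyD88ko, limma adjusted p = 0.0496) and 0 with LPS by limma, where 1.88% and 1.49% of all tested genes were called. At an unadjusted p under 0.05 the shares of all tested genes were 15.5% and 12%.

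Markers of other cells moved with LPS as well. The 5 listed of 8 hepatocyte genes summed to 112 to 269 (wt) and 146 to 186 (MyD88ko) normalized reads without LPS, against 10 to 19 and 4 to 26 after it, and Alb and Serpina3k were at 0 in all 6 LPS libraries. The 8 listed of 11 epithelial genes summed to 13 to 988 in wt untreated, against 4 to 56 in the other groups. In wt untreated replicates 1 to 3, Cldn4 had 213, 7 and 122 normalized reads, Krt19 had 166, 0 and 62, and Cdh1 had 3, 0 and 719. The fibroblast collagen Col1a1 had 27011, 52324 and 19270, so replicates 1 and 3 were higher in epithelial genes and lower in collagen than replicate 2. In wt LPS replicates 1 to 3, Col1a1 had 35191, 60610 and 36670, while the epithelial genes summed to only 40 to 56. Replicate 2 was thus highest in Col1a1 there too, without high epithelial sums in the group. The 6 smooth muscle genes summed to 24576 to 27151 without LPS and 41611 to 49402 after it in wt, and to 39562 to 44352 and 48709 to 58152 in MyD88ko. The 4 listed of 6 glial and neuronal genes summed to 529 to 854 and 321 to 512 without LPS, and to 1185 to 2539 and 516 to 1397 after it, in wt and MyD88ko. The part of these shifts in the falls of the members was not tested. In bulk libraries fewer cells of a type and less RNA per cell cannot be told apart.

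Reads at 3′ ends can be shared with near-identical copies. Of the 81 genes, 10 had another gene whose transcripts match the last 300 bases at 95% identity or more over at least 200 bases, among them 3 of the 17 that fell in wt (Atp5h, Atp5l and Cox7c) and 7 of the 63 others tested. The copy Gm10250 of Atp5h, listed as protein coding, had 853, 807 and 464 normalized reads in wt untreated and 569, 492 and 565 with LPS (−0.34, limma adjusted p = 0.394). It did not pass the test as Atp5h did, and the value of Atp5h is uncertain to the extent that reads were split between them. Gm5436, a pseudogene copy of Atp5o, was not called in either genotype (0.51 in wt and −0.08 in MyD88ko, limma adjusted p = 0.0852 and 0.874). Gm12251, a pseudogene copy of Ndufs3, was lower with LPS in wt (−1.09, limma adjusted p = 0.00586), while Ndufs3 itself was not called.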

How the data were processed

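The authors deposited a table per comparison of 2 groups, holding normalized read counts per gene and library, which are scores rather than counts because they were normalized and rounded to whole numbers, per the file headers and values. Tools named in the submitters' processing notes are Bowtie2, TopHat2 and DESeq, and the build is mm10, without versions or roles. The same deposited tables give the authors' p-value and adjusted p, a log2 fold change and the GC content as a fraction per gene. Of 166719 values given in 2 tables, 0 differed. Depth is not given by normalized totals and was not used.

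The log2 of (value + 1) was fitted with limma 3.58.1 (R 4.3.3; trend, robust) over all 12 libraries at once, with 4 group coefficients, which leaves 8 residual degrees of freedom. A gene was tested if every library gave it a value and any group mean reached 10. Calls are two-sided at a Benjamini-Hochberg adjusted p under 0.05 over 12385 genes, in each of 5 comparisons. Folds are on the (value + 1) scale. The fit was tested on simulated data for LPS in wt, where 100 of 11554 genes changed 2-fold and 100 changed 4-fold. It called 19 and 81 of them, and 3 of the 11354 unchanged genes. Most changes of 2-fold were thus missed there. The share missed with as many changed genes as were called here was not tested. Copies were searched with blastn 2.17.0 in GENCODE transcripts.

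Genes named are all called members up to 12 per comparison, the largest change per complex, restricted isoforms, c-ring and core genes, and up to 3 called genes per list. Others were chosen after their values were seen: Ndufs5, Ndufb3, Uqcrb, Atp5d, Uqcrq, Cox7a2l, Atp5sl, Ndufs3 and the copies. Other members are given in counts and medians only. The members and lists were chosen with earlier results of these data known. Alternatives were 2 pseudocounts, 2 filters, no trend, a replicate block, median-ratio rescaling, quantile normalization, a GC correction, voom, only the groups compared, and leaving out libraries.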

Additional observations from a re-analysis of the deposited data

How the results depend on the processing

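Counts of members called and their medians kept their direction under most settings. Members called with LPS ranged from 14 to 26 in wt and 5 to 12 in MyD88ko when 1 library was left out, and 15 to 22 and 6 to 11 under the other settings, with 6 in MyD88ko without the trend. Leaving out wt untreated replicates 1 and 3, which leaves 1 library in that group, assumed to vary as the others do, gave 10 in wt. Untreated genotypes gave 0 to 1 calls, and the other genotype comparisons 0. Leaving out 1 library, medians ran from −0.30 to −0.19 for LPS in wt, −0.23 to −0.16 for LPS in MyD88ko, 0.10 to 0.15 for untreated genotypes, 0.095 to 0.21 for genotypes with LPS and 0.0324 to 0.13 for the difference of responses. Voom, which moved the median of all genes to −0.14 untreated and −0.13 with LPS, gave −0.0049 and 0.0593, and quantile normalization gave 0.11 with LPS; relative to all genes the members stayed higher. After the data were seen, wt untreated replicates 1 and 3 and MyD88ko LPS replicate 3 were left out together, which gave 18 (4 higher, 14 lower) and 13 calls with LPS and 0.05 for the median difference of responses. Sdhc in MyD88ko reversed to −0.87 in that fit (limma adjusted p = 0.0212) and without MyD88ko LPS replicate 3 alone (0.0298); over single libraries left out it ran from −0.87 to 0.59.

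Of 19 calls in wt, 13 held whichever library was left out, and 5 of 10 in MyD88ko did. Whether replicate numbers pair libraries was not settled. Same-numbered deviations correlated at −0.114 to 0.171 over 18 pairs, and 2 pairs were over 0.1. Both joined untreated and LPS libraries of 1 genotype (0.171 for wt replicate 2 and 0.125 for MyD88ko replicate 1). The other pairs of that kind ran from −0.05 to 0.059. Differently numbered pairs were not computed for reference, so these values cannot exclude pairing, which the main fit does not model. With a replicate block the calls were 18 in wt, 10 in MyD88ko and 0 in the other comparisons. The difference of responses could not be fitted with only the groups compared. Since depths are unknown, what depth adds to the error of low genes was not tested.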
